A study of Mus musculus with 16 samples.

Results

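The lungs of male mice carrying the Fra-2 transgene (Fra-2 TG) were compared with those of male wild-type (WT) littermates on 8 of the 16 single-colour Agilent mouse arrays of the series, 4 per genotype, which are those with an m in their titles. The TG mice overexpress Fra-2, and the study describes a GFP reporter in their cells. The promoter that drives the transgene is not given in the sources used here. All mice of both genotypes were 8 weeks old and on a mixed BL6CBA background crossed back to C57BL6/J. RNA came from homogenate of the snap-frozen right lung. The other 8 arrays, 4 TG females and 4 WT females, took no part in the male fit and served for comparison. They also counted in the choice of the array feature that represented each gene. The labels speak of biological replicates but name no animal, litter or slide, so that p-values measure the spread between these arrays.

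Fra-2, encoded by Fosl2, is a subunit of the AP-1 transcription factor, which binds DNA as a dimer of Fos and Jun family proteins. NK cells are innate lymphocytes that kill target cells by releasing granzymes and perforin, and they read their targets through activating and inhibitory receptors. In mice the Ly49 (Klra), NKR-P1 (Klrb1) and NKG2 (Klrc, Klrd, Klrk) receptors are encoded side by side in the NK gene complex. The lung also holds epithelial cells anchored to the basement membrane by hemidesmosomes, a dense capillary endothelium, resident alveolar macrophages and, around the large veins, heart muscle cells.

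Levels are normalised log2 intensities, so that a difference of 1 is a 2-fold difference, and the lowest value on any array was 1.77. The array held 2 features for Fosl2, and only the dimmer of them separated the genotypes. It read 8.38, 7.38, 7.31 and 6.56 in the TG males and 4.91, 3.76, 2.39 and 3.25 in the WT males. All TG values lay above all WT values, and the first WT male had the highest WT value (log2 fold change 3.83 ± 0.54 SE, adjusted p = 0.0321 over all 43941 named features, of which 102, or 0.232%, were called in either direction). The brighter feature represented Fosl2 in the tests by gene and overlapped between the genotypes, at 9.32 ± 0.53 in TG males and 9.76 ± 0.56 in WT males (SD, n = 4 each). Xist read 2.55 to 3.04 in TG males and 2.90 to 3.77 in WT males. Eif2s3y, on the Y chromosome, read 9.34 to 9.53 in TG males and 9.23 to 9.73 in WT males. In TG and WT females Xist read 6.78 to 7.72 and 6.65 to 7.07, and Eif2s3y 4.00 to 6.17 and 3.75 to 4.12. By Xist and Eif2s3y all 8 male arrays matched their labelled sex. The sex-linked gene Kdm5d did not separate the sexes, with means of 5.64 and 5.96 in TG and WT males and 6.22 and 5.87 in TG and WT females.

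Markers of lung epithelium were present at high levels on all 8 arrays. Summed on the linear scale, those of club cells lay between 395200 and 438800 in TG males and between 381600 and 412700 in WT males. The 12 markers of club cells, the secretory cells of the small airways, were centred at a log2 fold change of 0.03, and the 19 of type 2 alveolar cells, which make surfactant, at one of 0.02 (medians). None of these 31 genes was called.

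One array, WT male replicate 1, lay apart from the rest. Its correlation with the other WT males over all genes averaged 0.980, whereas that of each other male array with its own group averaged 0.983 to 0.986. In it 1250 genes were more than 1 log2 unit above the mean of the other WT males and 1214 more than 1 below, against 441 to 859 and 413 to 828 in each other male array with respect to its own group. On the second principal component of the 8 arrays, which held 20.8% of the variance, it lay at -77.17 and the others at -5.41 to 15.9. The first component, with 23.5%, separated the genotypes. Chosen for their deviation, Aldoart1 was at 8.76 in replicate 1 and at 2.58 to 2.92 in the other WT males, and the hemoglobin gene Hbb-b2 was at 11.14, with 13.42 to 14.74 in the other WT males. By list, its level exceeded the other WT males at the median by 1.0 for immediate early genes, 0.95 for goblet cell genes, 0.63 for motile cilia and 0.61 for the AP-1 family.

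Among 24306 genes, the TG males had 39 higher (0.160% of genes tested) and 50 lower ones (0.206%) at an adjusted p under 0.05 (limma). At an unadjusted p under 0.05 there were 1182 higher and 1438 lower genes. Single arrays moved these counts. The higher genes numbered 83 without WT male 1, 22, 16 and 17 without WT males 2, 3 and 4, and 21, 24 and 21 without TG males 1, 2 and 3, and the lower ones 27, 26 and 22 without WT males 2, 3 and 4. In all 89 called genes the 4 TG values lay on one side of the 4 WT values, which was so for 752 genes higher in TG males (3.09% of genes tested) and 980 genes lower (4.03%). A change of at least 2-fold was seen in 35 of the rises and 47 of the falls. Another 169 genes were at least 2-fold higher and 322 at least 2-fold lower without being called, and in 84 and 174 of these the genotypes did not overlap. The median log2 fold change over all genes was -0.02.

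Many of the falls were in genes of NK cells and cytotoxic lymphocytes. Of the 50 lower genes, 21 belonged to 5 lists of NK cell receptors, granule genes, adapters and transcription factors with 88 measured genes in all, and no gene of these lists was higher. In whole lung RNA, fewer cells of a type and less RNA per cell cannot be told apart. Members of the Ly49 family are close relatives in sequence, so that a probe named for one may also read its neighbours.

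**Figure D1:**
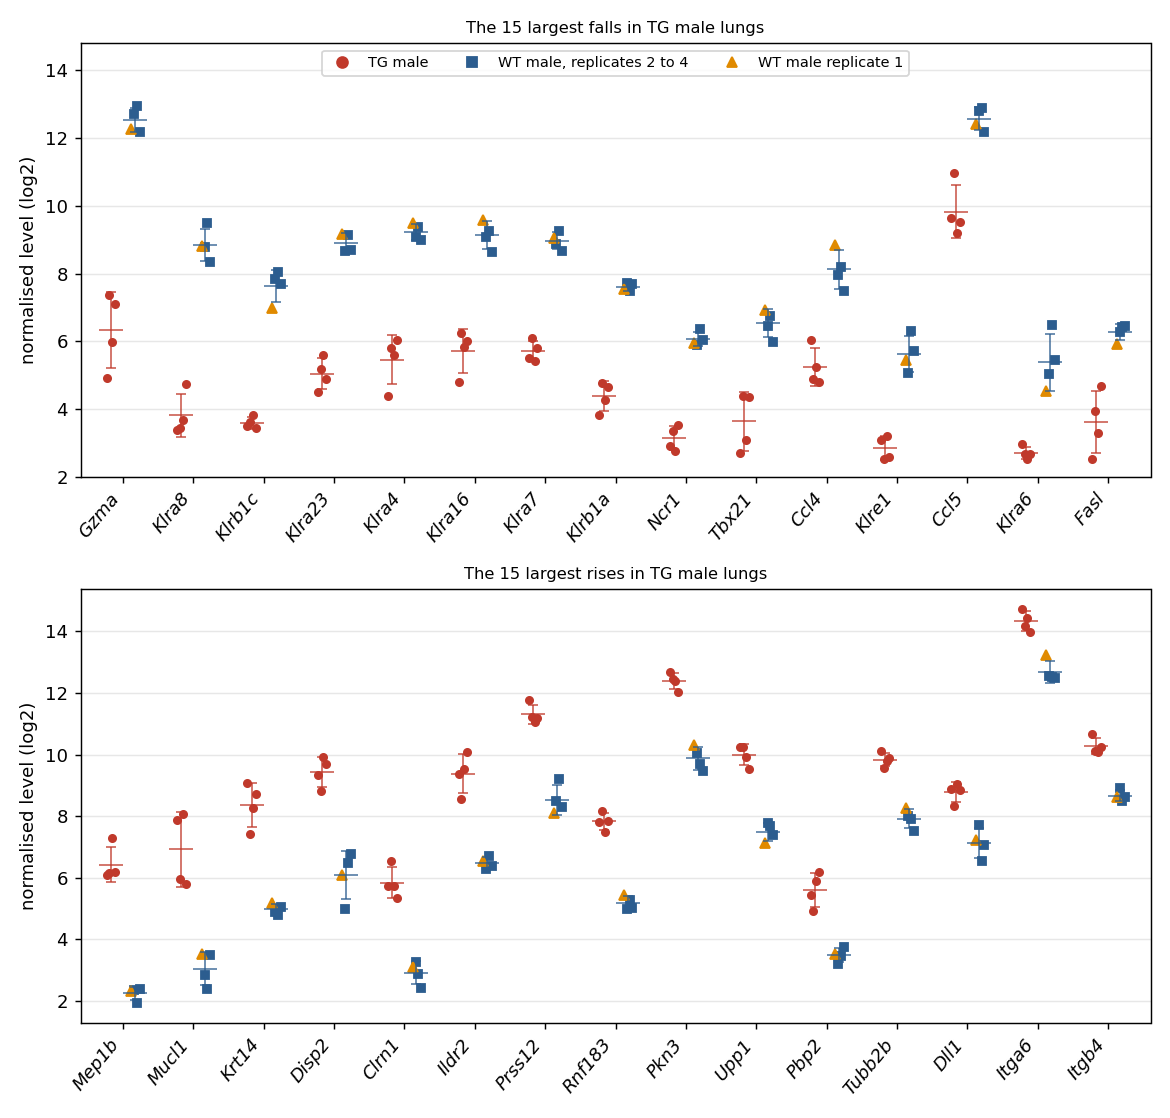
Normalised level (log2) of the 15 genes with the largest falls (upper panel) and the 15 with the largest rises (lower panel) among called genes that separate the genotypes. Each point is 1 array, with TG males left of WT males and WT male replicate 1 as a triangle, and the bars are the mean and SD (n = 4 each). In every gene the TG points lie clear of the WT points, including replicate 1.

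Gzma, which encodes the serine protease granzyme A, fell the most. Its level was 4.92, 7.37, 5.98 and 7.09 in TG males, against 12.29, 12.70, 12.96 and 12.18 in WT males. The TG values were spread over more than 2 log2 units while the WT values lay close together (log2 fold change -6.19 ± 0.50 SE, adjusted p = 0.00124), a 73.1-fold lower level in TG lungs. Gzmb, encoding granzyme B, was at 5.09 ± 0.32 in TG males and 7.55 ± 0.55 in WT males (SD, n = 4 each, log2 fold change -2.46, adjusted p = 0.00859). Prf1, the pore-forming perforin, fell by 1.31 (adjusted p = 0.026), Nkg7, a granule membrane protein of NK and T cells, by 2.37 (adjusted p = 0.00423), and the protease gene Ctsw by 2.06 (adjusted p = 0.00237). Fasl, the death receptor ligand, was at 2.52, 3.96, 3.31 and 4.67 in TG males, against 5.93, 6.27, 6.43 and 6.45 in WT males (log2 fold change -2.66, adjusted p = 0.0347). These 6 were all the called genes among 17 granule genes. Granzymes C to G and K were dim in both genotypes and were not called, and the median of the list was -0.13.

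Among the 12 measured Ly49 genes 7 were lower and none was higher, with a list median of -2.48. Klra8, encoding the activating receptor Ly49H, was at 3.38, 3.44, 3.69 and 4.75 in TG males, against 8.82, 8.80, 9.48 and 8.34 in WT males (log2 fold change -5.05 ± 0.35 SE, adjusted p = 0.000543). The 2 other features of Klra8 read -4.20 and -4.45. Klra23, Klra4, Klra16 and Klra7 fell by 3.87, 3.78, 3.42 and 3.26 with adjusted p values from 0.000543 to 0.00297. Klra6 and Klra9 fell by 2.67 and 2.28. The TG values of Klra6 were 2.52 to 2.96, near the lowest values on the arrays, so that its true fall can be larger than the measured one. Klra2, Klra10 and Klra17 had log2 fold changes of -0.72, -0.70 and -0.51 and were not called, and the features of Klra1 went in opposite directions.

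Klrb1c, which encodes NK1.1, the antigen by which mouse NK cells are usually recognised in this strain, was at 3.51, 3.61, 3.82 and 3.44 in TG males. Its WT levels were 6.98, 7.84, 8.06 and 7.69, a log2 fold change of -4.05 ± 0.23 SE (adjusted p = 0.000543). Klrb1a, another NKR-P1 receptor, fell by 3.22 (adjusted p = 0.000543), Klrk1, the activating receptor NKG2D, by 2.39 (adjusted p = 0.000591) and Klrd1, the CD94 partner of the NKG2 chains, by 1.27 (adjusted p = 0.00997). Klre1 was at 2.54 to 3.21 in TG males, near the lowest values on the arrays, so that its true fall can exceed the measured one of 2.78 (adjusted p = 0.00381). Another feature of Klre1, of about the same brightness, fell by 4.03 (adjusted p = 2.76e-05 over all features). These were the 5 called genes of 16 in the list, which had a median of -1.20. The genotypes also did not overlap in Klrb1 (-2.03), Klrb1b (-1.71), Klrb1f (-1.13) and Klrg1 (-1.69), but the adjusted p values of these genes were 0.0589 to 0.225.

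Of 15 NK receptors encoded elsewhere, 2 were lower. Ncr1, the NKp46 receptor that marks NK cells across species, was at 2.90, 3.36, 2.78 and 3.53 in TG males, against 5.96, 5.90, 6.37 and 6.03 in WT males. The change of -2.92 ± 0.21 SE had an adjusted p of 0.000579. Il2rb, the receptor chain through which interleukins 2 and 15 sustain NK cells, fell by 2.38 (adjusted p = 0.00209). Of 28 adapters and transcription factors, Tbx21 was the only one called. It encodes T-bet, which drives the maturation of NK cells and of type 1 helper T cells. Its TG values were 2.70, 4.39, 3.10 and 4.36, against WT values of 6.92, 6.45, 6.76 and 5.98 (log2 fold change -2.89 ± 0.41 SE, adjusted p = 0.0231). For its relative Eomes the difference was -1.27 (adjusted p = 0.21) and for Nfil3, needed early in NK cell development, -1.72 (adjusted p = 0.266).

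**Figure D2:**
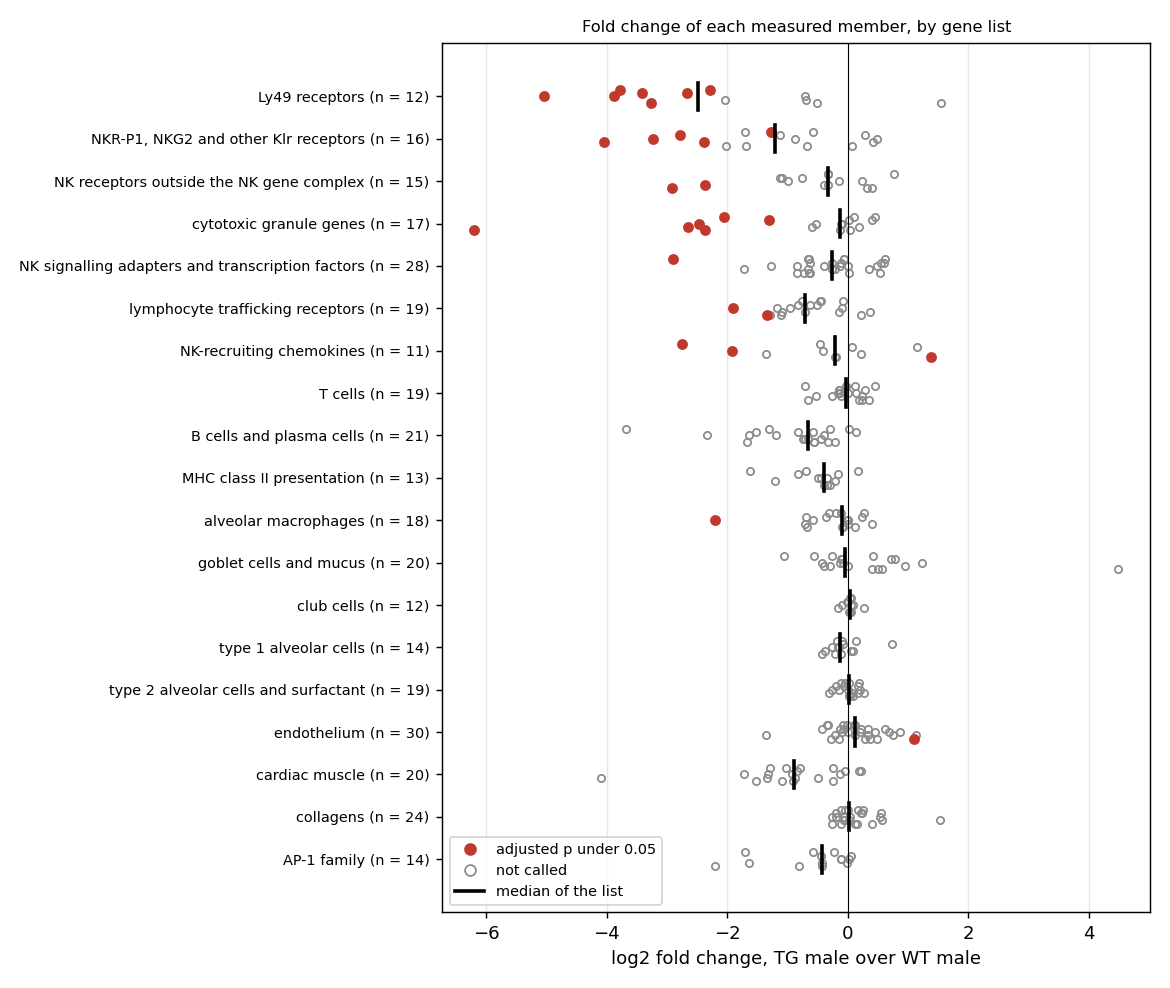
Log2 fold change of TG over WT males for each measured member of 19 gene lists. Filled points passed an adjusted p of 0.05, open points did not, and the black bar is the median of the list. The filled points lie mainly at the left of the NK lists, whereas the club cell and alveolar lists are centred on 0.

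T cell genes gave no calls. Among 19 measured members, the range was -0.71 to 0.45 and the median -0.03, and Cd3e, Cd3g and Cd4, which define T cells, had log2 fold changes of 0.14, -0.03 and -0.15. Summed on the linear scale, the list lay between 4486 and 7456 in TG males and between 5630 and 5955 in WT males. B and plasma cell genes had no call either, at a median of -0.65. Their sum did not overlap, at 16430 to 22520 in TG males and 24800 to 36380 in WT males. Pou2af1, a coactivator of B cells, was at 6.25, 7.77, 6.36 and 6.48 in TG males and 9.26, 8.51, 8.69 and 9.73 in WT males (log2 fold change -2.33, adjusted p = 0.0519). Jchain, which joins secreted IgA and IgM, varied most among the TG males, at 2.64, 4.69, 8.85 and 7.23, against 9.22 to 9.80 in WT males (adjusted p = 0.272). Across the 13 genes of MHC class II presentation no call was made, and the median was -0.39. Their sum did not overlap either, at 56660 to 77040 in TG males and 82640 to 107700 in WT males.

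Chemokines moved in both directions. Ccl3, Ccl4 and Ccl5, which are made by activated NK cells, T cells and macrophages, were all lower. Ccl3 was at 5.50, 5.48, 5.83 and 5.65 in TG males, against 7.57, 7.57, 7.61 and 7.42 in WT males. Both groups were tight, and the fall of 1.93 ± 0.14 SE had an adjusted p of 0.000591. Ccl5 was at 9.83 ± 0.78 in TG males and 12.58 ± 0.34 in WT males (SD, n = 4 each, log2 fold change -2.74, adjusted p = 0.0194), and Ccl4 fell by 2.88 (adjusted p = 0.00997).

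Ccl9, a ligand of the receptor Ccr1, was the only chemokine called higher. It was at 11.72, 11.20, 11.39 and 11.63 in TG males, against 10.32, 10.00, 10.00 and 10.14 in WT males (log2 fold change 1.37 ± 0.17 SE, adjusted p = 0.00997). Cxcl10, an interferon-induced ligand of Cxcr3, did not overlap, at 4.91 to 5.82 in TG males and 6.23 to 7.57 in WT males, but was not called (log2 fold change -1.35, adjusted p = 0.178). Ccl2, Ccl7, Ccl11, Cxcl9 and Cx3cl1 overlapped between the genotypes, with adjusted p values from 0.493 to 0.870. Cxcl11 read at least 15.93 in TG males and at least 15.70 in WT males, near the top of the scale, where a difference could not be seen.

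Receptors that guide lymphocytes fell in part. Of 19 measured, Cxcr3 was lower by 1.34 (adjusted p = 0.00997) and S1pr5, which lets NK cells leave bone marrow and lymph nodes, by 1.91 (adjusted p = 0.0231). Itgal, Itga4 and Ccr6 had log2 fold changes of -1.11, -1.08 and -1.30 with adjusted p values of 0.053 to 0.0883. The median of the list was -0.71.

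Lower genes outside the lymphocyte lists included several of myeloid cells. Marco, a scavenger receptor of alveolar macrophages, was at 8.66, 8.11, 7.90 and 7.77 in TG males, against 10.40, 9.50, 11.05 and 10.29 in WT males (log2 fold change -2.20 ± 0.33 SE, adjusted p = 0.0299). It was the only called gene of 18 in the alveolar macrophage list, whose median was -0.10. Siglecf, Itgax and Fabp5, which also mark these cells, had log2 fold changes of -0.67, 0.13 and 0.01. Clec4e, the receptor Mincle of activated macrophages, fell by 1.44, Pdcd1lg2, the checkpoint ligand PD-L2, by 1.56, and Cd83, a surface protein of mature dendritic cells, by 1.54 (adjusted p = 0.0347, 0.0265 and 0.0387). Pdcd1lg2 was the only called gene of 20 of alternatively activated macrophages, which ranged from -1.56 to 1.31 (median 0.07). None of 17 dendritic cell genes was called, at -1.49 to 1.86 (median -0.45). In 8 of the 17 all TG males lay below all WT males, and in 1 above, beside 4.03% and 3.09% of all genes. Cma1, encoding mast cell chymase, fell by 1.94 (adjusted p = 0.00859) and was the only called gene of 14 of mast cells and basophils. Kit and Hdc, also of mast cells, had log2 fold changes of 0.40 and -0.50.

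Heart muscle genes were shifted without a call. Of 20 measured, 8 lay lower in all TG males than in all WT males, which was so for 4.03% of all genes tested. The median was -0.89. Nppa, the atrial natriuretic peptide, was at 2.69, 6.82, 7.95 and 5.12 in TG males and 10.11, 9.17, 8.46 and 11.21 in WT males (log2 fold change -4.09 ± 1.06 SE, adjusted p = 0.195). Summed on the linear scale the list lay between 21330 and 37950 in TG males and between 44210 and 71660 in WT males. The part of heart muscle content in other results was not tested.

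The higher genes came from several families. Mep1b, a subunit of the metalloprotease meprin, rose the most and was at 6.07, 6.15, 7.27 and 6.19 in TG males, against 2.30, 2.34, 1.92 and 2.38 in WT males. The WT values were near the lowest on the arrays, so that the true rise can exceed the measured log2 fold change of 4.19 ± 0.28 SE (adjusted p = 0.000543). Mucl1, a small secreted mucin-like protein, and Clrn1, a membrane protein known from the inner ear and retina, were also dim in WT males and rose by 3.88 and 2.92. Disp2, a relative of the Hedgehog release protein dispatched, rose by 3.36 and Ildr2, an immunoglobulin-like receptor, by 2.91. Prss12, a secreted serine protease, was bright in both genotypes, at 11.31 ± 0.31 in TG males and 8.52 ± 0.48 in WT males (SD, n = 4 each), and rose by 2.79 (adjusted p = 0.00273).

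Pkn3, a protein kinase of the PKN family, was at 12.67, 12.45, 12.38 and 12.03 in TG males. In WT males it was at 10.29, 10.04, 9.70 and 9.45, a rise of 2.51 ± 0.22 SE (adjusted p = 0.00209). Rnf183, a membrane-bound ubiquitin ligase, rose by 2.65 (adjusted p = 0.000543) and Upp1, uridine phosphorylase, by 2.50 (adjusted p = 0.00209). Tubb2b, a tubulin, rose by 1.92, Dll1, a ligand of Notch, by 1.64 and Tnfsf9, the costimulatory ligand 4-1BBL, by 1.57.

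Since Fra-2 binds DNA as part of AP-1, the promoters of the called genes were searched for the AP-1 site TGACTCA on both strands, from 250 bases before to 50 after each RefSeq start (GRCm38.p6). Promoters were found for 29 of the 39 genes that rose and 38 of the 50 that fell. The site was present in 6 of the 29 (20.7%) and in 2 of the 38 (5.26%), beside 5.64% of the 19217 tested genes with a promoter and 5.20% of all 32851 promoters. The 6 higher genes were Emp1, Fam214b, Pkn3, Rnf183, Sema6b and Upp1, and the 2 lower ones Gzmb and Klrk1. A match shows only that these letters are there. To show where the letters fall, the stretches around the sites that lie before a start are printed 5′ to 3′ along the gene, with the site in capitals, which is TGACTCA or, where it lies on the other strand, TGAGTCA.
Pkn3, chr2:30078550-30078596, plus strand: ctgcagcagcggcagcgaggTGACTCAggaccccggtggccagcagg
Rnf183, chr4:62434649-62434695, minus strand: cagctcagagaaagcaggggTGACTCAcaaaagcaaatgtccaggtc
Upp1, chr11:9117943-9117989, plus strand: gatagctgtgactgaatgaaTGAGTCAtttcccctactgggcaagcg
Emp1, chr6:135362766-135362812, plus strand: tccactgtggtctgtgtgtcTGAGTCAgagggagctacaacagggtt
Fam214b, chr4:43040417-43040463, minus strand: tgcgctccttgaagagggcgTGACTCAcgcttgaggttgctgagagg
Sema6b, chr17:56133874-56133920, minus strand: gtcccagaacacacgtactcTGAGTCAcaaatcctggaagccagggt
Gzmb, chr14:56262366-56262412, minus strand: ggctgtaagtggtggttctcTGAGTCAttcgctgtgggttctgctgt
The site of Klrk1, and another one of Fam214b, lay after the start.

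Motifs of other factors were searched in the same windows. The T-box site AGGTGTGA, of the kind T-bet binds, was in 2 of the 38 lower genes (5.26%, Nkg7 and Samd3) and in none of the 29 higher ones, beside 1.42% of tested genes. The RUNX site TGTGGTT was in 6 of the lower genes (15.8%, Cxcr3, Gzma, Gzmb, Klre1, Klrk1 and Ncr1) and in 2 of the higher ones (6.90%, Fam181b and Uaca), beside 5.51% of tested genes. The cAMP response element TGACGTCA was in Peg3 alone. The sites TTATGTAA and TTACGTAA, of the kind that NFIL3 binds, were in none of the 29 higher and none of the 38 lower genes, beside 1.05% and 0.141% of tested genes.

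Genes of the hemidesmosome, chosen as a list after their values were seen, rose in part. Krt14, a keratin of basal epithelial cells, was at 9.07, 7.43, 8.25 and 8.73 in TG males, against 5.17, 4.89, 4.78 and 5.05 in WT males (log2 fold change 3.39 ± 0.32 SE, adjusted p = 0.00277). Itga6 and Itgb4, the 2 chains of the integrin that holds epithelium to laminin, rose by 1.64 and 1.61 (adjusted p = 0.0231 and 0.00606), and Plec, the plectin that ties this integrin to keratin, by 1.04 (adjusted p = 0.0194). Itga6 was at 14.72, 14.18, 14.44 and 13.97 in TG males and 13.23, 12.54, 12.51 and 12.47 in WT males. Of its 5 features, 4 read between 1.50 and 1.67 and 1 bright feature read 0.02. The other 7 of 11 measured members were not called. Krt5, the usual partner of Krt14, read -0.42 and Col17a1, the hemidesmosomal collagen, -0.33, and of 24 genes of basal and squamous epithelium Krt14 alone was called.

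Several higher genes are known from blood vessels. Cd34, a sialomucin of capillary endothelium and of progenitor cells, was at 15.13, 14.93, 14.88 and 14.89 in TG males, against 13.88, 13.25, 13.23 and 13.26 in WT males (log2 fold change 1.55 ± 0.18 SE, adjusted p = 0.00859). Nos3, the endothelial nitric oxide synthase, was at 11.67, 11.52, 11.38 and 11.22 in TG males, against 10.35, 10.46, 10.23 and 10.37 in WT males. Its log2 fold change was 1.09 (adjusted p = 0.0194). Rasip1, which acts with Ras-family GTPases in vessel lumen formation, rose by 0.88 (adjusted p = 0.0363) and Cavin3, a coat protein of caveolae, by 0.94 (adjusted p = 0.0449). Most endothelial genes were not called. Of 30 measured, Nos3 alone was called, and the list ranged from -1.36 to 1.12 with a median of 0.12. In 5 of the 30 all TG males lay above all WT males, and in 1 below, beside 3.09% and 4.03% of all genes. Pecam1, Cdh5 and Cldn5 had log2 fold changes of 0.29, 0.20 and -0.01.

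Further higher genes included an imprinted gene, genes derived from a retrotransposon, a membrane repair gene and Emp1. Peg3, a zinc finger protein expressed from the paternal allele, rose by 1.21 (adjusted p = 0.0195). Rtl8c and Rtl8b, which derive from a retrotransposon and lie side by side, rose by 1.02 and 1.01, and their close sequences mean that one probe may read both. Dysf, the dysferlin that reseals membranes, rose by 1.38 (adjusted p = 0.00453) and Emp1, an epithelial membrane protein, by 1.08 (adjusted p = 0.0194).

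Lists named for fibrosis and mucus showed few changes in males. None of 24 collagens and none of 36 genes of matrix remodelling and TGF-beta signalling was called, with medians of 0.03 and 0.00. All TG males lay above all WT males in 3 of the 24 and in 2 of the 36, beside 3.09% of all genes. They lay below in 0 of either list, beside 4.03%. Clca1, a secreted protein of mucus-producing cells, had the widest non-significant difference among the 20 goblet cell genes. It was at 9.70, 11.29, 9.37 and 8.55 in TG males, against 6.30, 3.07, 4.25 and 7.34 in WT males, so that the genotypes did not overlap but the WT males were spread over more than 4 log2 units (log2 fold change 4.49 ± 0.93 SE, adjusted p = 0.112). The other 19 genes of the list ranged from -1.05 to 1.24. The median of the list was -0.04 with all 8 arrays, 0.16 without WT male replicate 1 and 1.41 in females. In all, 35 of 48 lists had no called member.

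Leaving replicate 1 out of the fit changed which genes were called. Without it 83 genes were higher (0.341%) and 40 lower (0.165%), and 66 genes were called either way, 34 of them higher and 32 lower. These are 74.2% of the genes called with all 8 arrays and 53.7% of those called without replicate 1. Leaving out any other single male array kept fewer of the 89 calls, 38 to 56.

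**Figure D3:**
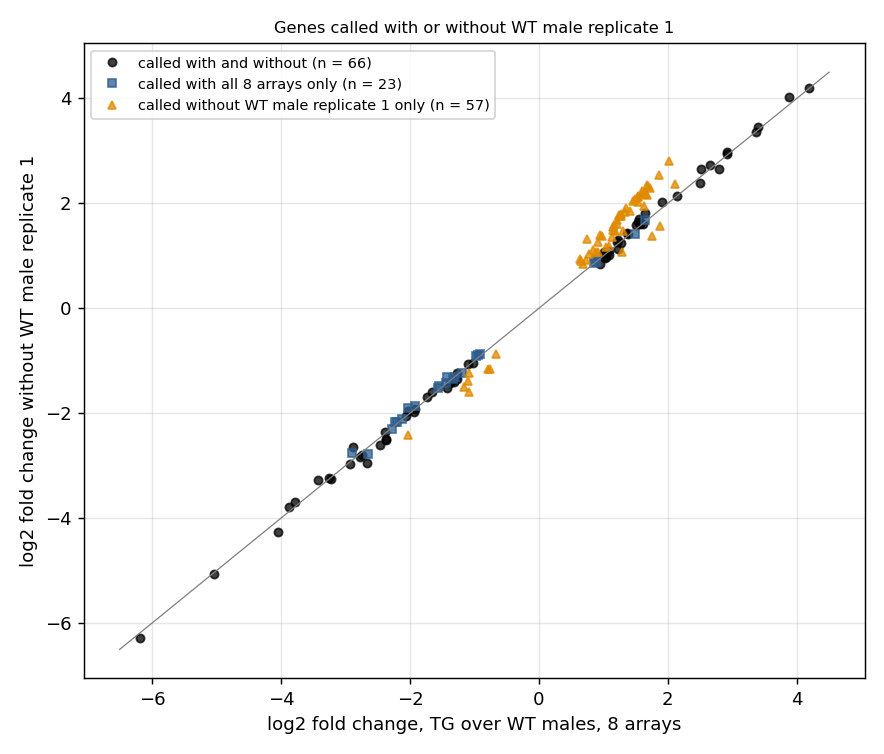
Log2 fold change of TG over WT males with all 8 arrays (horizontal axis) and without WT male replicate 1 (vertical axis) for every gene called in either fit, with the line of equal values. The 23 genes that lost their call lie on the line, whereas most of the 57 that gained one lie farther from 0 without replicate 1.

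The 23 genes that lost their call, 5 higher and 18 lower, did so with nearly the same fold change, at 0.914 to 1.04 times that with all arrays, and their adjusted p values without replicate 1 reached at most 0.0706. Among the lower genes they included Tbx21 (log2 fold change -2.76, adjusted p = 0.0586), Fasl (-2.77, adjusted p = 0.0576), Klra9 (-2.30, adjusted p = 0.0532), Xpnpep2 (-2.17, adjusted p = 0.0706) and Marco (-2.17, adjusted p = 0.0643). Among the higher genes they were Dll1 (1.68, adjusted p = 0.0683), Stra6l, Arhgap20, Rasip1 and Fam214b. Gzma, Klra8, Klrb1c, Ncr1, Krt14, Itgb4 and Ccl9 stayed called.

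The 57 genes that gained a call, 49 higher and 8 lower, are mostly ones in which replicate 1 lay closer to the TG males than the other WT males did, since leaving it out chose them. In 35 of the 49 higher genes replicate 1 lay at or above the lowest TG male, and in 4 above all of them. Tbx22, a T-box factor of palate development, was at 11.43, 11.81, 10.64 and 10.66 in TG males, at 8.41, 8.81 and 7.74 in WT males 2 to 4, and at 11.53 in replicate 1. Its log2 fold change was 2.01 (adjusted p = 0.356) with replicate 1 and 2.82 (adjusted p = 0.0249) without. Lsamp, an adhesion protein of neurons, was at 10.16 to 11.48 in TG males, at 7.89 to 8.34 in WT males 2 to 4 and at 10.83 in replicate 1. Rabgap1, a GTPase regulator, and Shank2, a scaffold of synapses, showed the same order, with 10.78 and 6.51 in replicate 1, and their log2 fold changes without it were 2.33 and 2.35. Another of 3 features of Shank2, brighter over the 8 male arrays, showed no difference. The rises of Tbx22, Lsamp and Rabgap1 likewise rested on 1 feature each. Their other features were dimmer and read -0.16 to 0.39 for Tbx22, -0.61 to 0.23 for Lsamp and 0.39 for Rabgap1 with all 8 arrays.

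**Figure D4:**
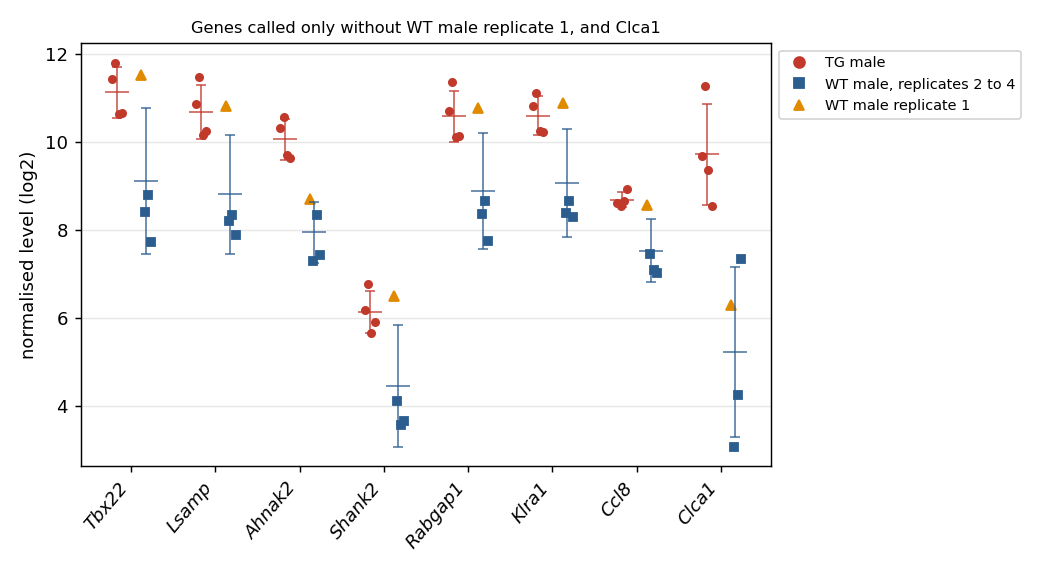
Normalised level (log2) of 7 genes called higher in TG males only without WT male replicate 1, and of Clca1, which was not called either way, each on the feature that represented the gene. Each point is 1 array, with TG males left of WT males, and the bars are the mean and SD (n = 4 each). The triangle, replicate 1, lies among or next to the TG points in Tbx22, Lsamp, Shank2, Rabgap1, Klra1 and Ccl8.

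The 3 features of Klra1, another Ly49 gene, disagreed. The brightest, which represented the gene, was at 10.82, 11.12, 10.26 and 10.22 in TG males, against 10.89, 8.39, 8.67 and 8.31 in WT males. Its log2 fold change was 1.54 (adjusted p = 0.343) with replicate 1 and 2.15 (adjusted p = 0.0174) without. The next brightest was at 6.43, 6.87, 6.16 and 6.91 in TG males, against 10.37, 9.86, 10.33 and 9.76 in WT males, with no overlap and a fall of 3.48 (adjusted p = 0.000522 over all features). The dimmest read -0.02, so that no direction can be given for Klra1. Klra5 was lower, at 2.56 to 2.97 in TG males and 4.76 to 5.51 in WT males 2 to 4, with 3.64 in replicate 1 (log2 fold change without it -2.41, adjusted p = 0.0056). Cyp2d12, Hapln3, H2-T3 and Lrch4 were also lower only without it, although H2-T3 changed sign with another choice among its 4 features.

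Some further genes gained in this way were singled out after their values were seen. Ccl8, a ligand of Ccr2 and Ccr8, was at 8.61, 8.55, 8.66 and 8.94 in TG males, against 8.57, 7.46, 7.11 and 7.02 in WT males. Without replicate 1 its log2 fold change was 1.50 (adjusted p = 0.0159), against 1.15 (adjusted p = 0.225) with it. Retnla, a secreted protein of alternatively activated macrophages and epithelium, did not overlap, at 13.26 to 14.03 in TG males and 11.94 to 12.75 in WT males, with an adjusted p of 0.062 with replicate 1 and 0.0368 without. Cavin1, needed for caveolae, and Ezh2, a histone methyltransferase, had log2 fold changes of 0.84 and 1.04 without replicate 1 (adjusted p = 0.0398 and 0.0421).

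The female arrays took no part in the male fit that called these genes, but counted in the choice of each gene's feature. Fitted alone they gave 974 genes higher (4.01%) and 1027 lower (4.23%) in TG females against WT females, and 112 and 91 without TG females 1 and 4. Of the genes called in males, 29 of the 39 higher ones were called higher and 40 of the 50 lower ones lower in females, and none was called the opposite way. The sign was the same for 88 of 89 genes. The rises had a median log2 fold change of 1.50 in males and 1.19 in females, and the falls one of -2.03 in males and -1.91 in females.

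**Figure D5:**
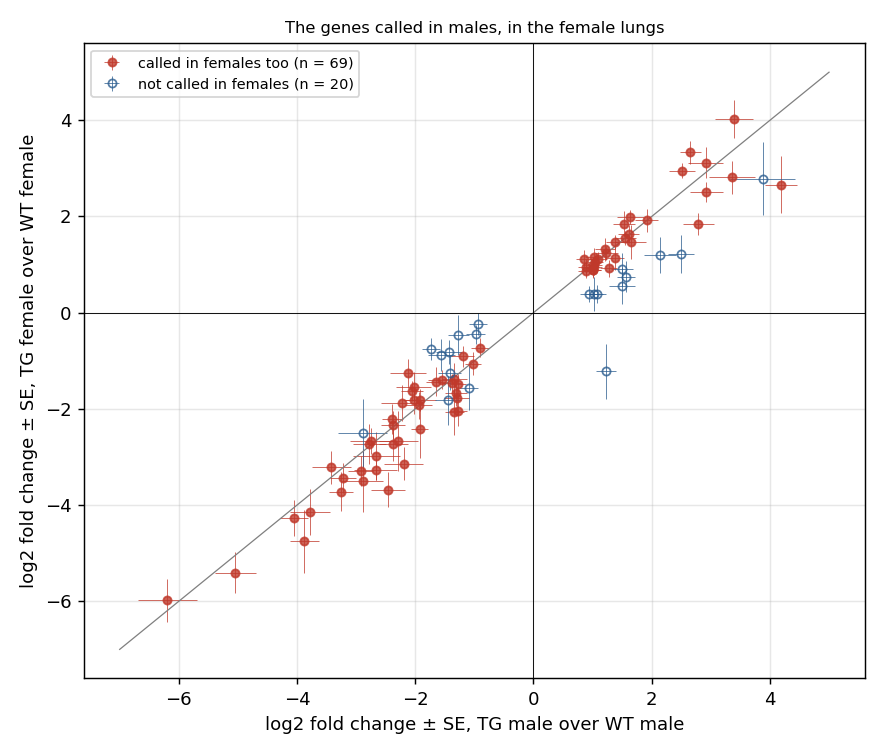
Log2 fold change with its SE of the 89 genes called in males, in males (horizontal axis) and in females (vertical axis), with the line of equal values. Filled points were called in the female arrays fitted alone and the 20 open points were not. All points but 1, Mup21 at the lower right, lie in the quadrants of equal sign.

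Gzma had a log2 fold change of -6.19 in males and -5.98 in females, Klra8 of -5.05 and -5.40 and Krt14 of 3.39 and 4.03. No gene had a difference between the male and female effects at an adjusted p under 0.05 (0 of 24306 genes, 0%, limma on all 16 arrays, smallest adjusted p = 0.124), while 3125 genes had an unadjusted p under 0.05. Among the 89 genes 12 had an unadjusted p under 0.05, beside 12.9% of all genes. Mup21, a major urinary protein, was at 4.42 ± 0.20 in TG males and 3.18 ± 0.22 in WT males, and at 3.82 ± 0.57 in TG females and 5.03 ± 1.24 in WT females (SD, n = 4 each), a difference between the effects of 2.45 ± 0.64 SE (adjusted p = 0.33). Upp1 rose by 2.50 in males and had a log2 fold change of 1.22 in females (difference 1.28 ± 0.47 SE, adjusted p = 0.331). Adamts14, a protease of procollagen, fell by 1.74 in males and had a log2 fold change of -0.76 in females (difference -0.98 ± 0.27 SE, adjusted p = 0.33). A p that misses the threshold does not show that the sexes respond alike.

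Of the 49 genes called higher only without replicate 1, 45 were called higher in females. The median log2 fold change of the 49 was 3.23 in females, beside 1.27 in males with and 1.68 without replicate 1. The TG females counted in the choice of these features, so the count is not independent of that choice. The genes cannot be taken as independent of each other either, since several shared an order of arrays. In Tbx22, Lsamp, Rabgap1, Cdcp1, Tdgf1 and Klra1 the same TG male was highest and the same WT male lowest within its group. Slmap and Cavin1 had another order. How many separate signals the 45 hold was not tested. Tbx22 was at 13.31 ± 1.95 in TG females and 7.64 ± 0.30 in WT females (SD, n = 4 each), on the feature that represented the gene. The TG females were widely spread. The difference between the male and female effects, -3.66 ± 1.19 SE, was not called (adjusted p = 0.33).

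Genes called in males were checked on their other features. Of the 89, 40 had more than 1 feature, with 63 others in all. Of these, 50 had the same sign, 14 were called in the same direction and none was called in the opposite direction. The 10 others above the median gene level all had the same sign, and in 7 of them the log2 fold change was at least 0.5.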

How the data were processed

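The deposited values are on the log2 scale, 1 per feature and array, background-corrected and quantile normalized by the authors in limma (also named in the submitters' processing notes, the version being not given in the sources used here). Neither flags nor background signals were used, and precision is limited by the number of arrays. Of 62976 features, 43941 had a gene symbol, updated through accessions and synonyms with a RefSeq gene table (GRCm38.p6), and 19035 had none. Each of 24306 genes was represented by its brightest feature, by the mean of all 16 arrays. Groups came from the sample titles. TG over WT males was tested on the 8 male arrays alone with limma 3.58.1 in R 4.3.3 (lmFit and eBayes) and Benjamini-Hochberg adjustment over all genes, and the difference between sexes as an interaction on 16 arrays. No list was tested. Figures were drawn with matplotlib 3.10.9 in Python 3.11.15.

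The comparison, gene lists, alternatives and rule for named genes were chosen with earlier results of these data known. The rule took Fosl2 and sex-linked genes, the 15 largest rises and falls, up to 4 called genes per list, the 5 largest gains and losses without replicate 1 in each direction, 6 deviating genes each way, and chemokines of NK cell recruitment. Unnamed transcripts were left out of it. Other genes, among them those of the hemidesmosome, were singled out after their values were seen. The fit was tested on simulated data.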

Additional observations from a re-analysis of the deposited data

Results flagged for a closer look

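Among 246 groups of 4 arrays looked at, 2 per gene for the called and named genes, 12 held a value far from the other 3 relative to the range of the group. Groups of 4 values drawn alike are flagged in about 1 of 20. That rate cannot be applied to the total here, since most of these genes were chosen through their values on the same arrays. WT male replicate 1 gave 6 of the 12 flagged values. It was highest in Itga6 (13.23, others 12.48 to 12.54), Cd34 (13.88, others 13.23 to 13.26), Lsamp (10.83, others 7.89 to 8.34), Aldoart1 (8.76, others 2.58 to 2.92) and Uts2b (5.50, others 2.20 to 2.54), and lowest in Lrch4 (5.48, others 6.86 to 7.07). Lsamp, Lrch4, Aldoart1 and Uts2b had been chosen through their values on this array.

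The other 6 values were spread over 4 arrays. TG male replicate 3 was highest in Mep1b (7.27, others 6.07 to 6.19) and lowest in Ccdc9b (12.31, others 12.74 to 12.82). TG male replicate 1 was lowest in Prdm8 (5.98, others 6.49 to 6.53). TG male replicate 4 was lowest in Trim12a (9.72, others 10.74 to 10.92) and highest in Enthd1 (4.38, others 2.61 to 2.88). WT male replicate 4 was lowest in Adamts14 (8.72, others 9.05 to 9.11).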

How the results depend on the processing

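All 89 genes called in males kept their sign under every alternative that gave them a value, and 27 kept their call in all of them. The number of calls depended on the processing. With all 8 arrays 39 genes were higher and 50 lower. Leaving out 1 array at a time gave 16 to 83 higher and 22 to 40 lower genes, with the most higher genes without WT male replicate 1 and the fewest without WT male replicate 3. Testing only the brightest 16204 genes gave 77 and 101, and the brightest 12153 genes 103 and 121. The brightest 12153 genes without WT male replicate 1, an alternative chosen after seeing the data, gave 362 and 262. An intensity trend gave 128 and 167, all 16 arrays in 1 fit 75 and 82, an adjusted p under 0.1 68 and 105, and one under 0.01 18 and 25. The replicate number as a block gave 13 and 19. Same-numbered arrays had residual correlations of -0.0415 to 0.123, with the highest for number 1, and the other TG and WT pairs of -0.0827 to 0.0716. Whether arrays of the same number belong together cannot be told from these values. The labels do not say so, and the numbers were not read as pairs. The mean of all features, the feature brightest in males, cyclic loess, median centring, a robust fit, array weights and a 2-fold minimum stayed within 1.5 times the counts.

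The male and female effects differed in 0 genes (limma, 3125 at an unadjusted p under 0.05), and in 7 without TG female replicate 3 (0 to 7 over all arrays left out). The female arrays called 974 higher and 1027 lower genes, but 112 and 91 without TG female replicates 1 and 4. Among the genes named by rule and those called only without WT male replicate 1, the sign of an uncalled change turned with the mean of all features for Fosl2 (1.70), Klra1 (-0.66), Eif2s3y (0.07) and Kdm5d (0.04). It also turned for Shank2 (0.00) and H2-T3 (0.93) with the feature brightest in males, H2-T3 with the mean of its features (0.03), Ccl2 without TG male replicate 3 (0.02, range -0.45 to 0.02 over the arrays left out), Ccl7 without TG male replicate 1 (-0.04, range -0.04 to 0.42) and Cxcl11 without WT male replicate 4 (0.00, range 0.00 to 0.10). Over the arrays left out, the sign also turned for Kdm5d (-0.56 to 0.11) and, among the genes chosen for their deviation in WT male replicate 1, for Syt10 (-1.55 to 0.39), Akr1e1 (-1.17 to 0.33), Hbb-b1 (-1.10 to 0.08), Coa7 (-0.43 to 0.67), Aldoart1 (-1.72 to 0.33), Enthd1 (-1.06 to 0.38) and Uts2b (-0.62 to 0.47). Without WT male replicate 1 itself Aldoart1, Enthd1 and Uts2b read 0.33, 0.38 and 0.47 and Coa7 -0.43, and with array weights Coa7, Enthd1 and Uts2b read -0.13, 0.19 and 0.27. The causes were not tested. Without signal over background, dim genes could be judged by their level alone. Of the lower genes 9 averaged under 4 in TG males and of the higher genes 6 averaged under 4 in WT males.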
